A study of Arabidopsis thaliana with 18 samples.

Results

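The athb25 line was compared with wild-type (WT) Col-0 in germinating Arabidopsis thaliana seed at 24 h SL, that is, after stratification in the cold and dark followed by 24 h in continuous light. All genes with enough counts for a test were taken, which were 19100 of the 37336 genes in the table. The athb25 line is a homozygous T-DNA insertion line in the Col-0 background, in which a piece of bacterial plasmid DNA is inserted at ATHB25. Each group had 2 libraries of polyA-selected RNA from seed pooled over several parent plants and collected in duplicate, and the groups shared stratification, light and time of collection. The same experiment held 7 further T-DNA lines (athb15, hat2, lmi1, obp1, smb, vnd2 and wrky14), also with 2 libraries each, for 18 libraries in all. A single insertion line stood for the loss of ATHB25, so other lesions in that line and the loss of ATHB25 cannot be told apart. The comparison addressed which genes are misexpressed in germinating seed when this transcription factor is disrupted.

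ATHB25 belongs to the zinc finger homeodomain family, plant transcription factors that pair a zinc finger dimerisation domain with a homeodomain that binds DNA. ATHB25 has been linked to gibberellin and to seed longevity. Germination is governed by the balance of gibberellin, which promotes it, and abscisic acid, which holds seed dormant. During this stage seed uses up its oil and storage protein, loses the late embryogenesis abundant (LEA) proteins that protected it in the dry state, loosens its cell walls and starts to build chloroplasts.

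ATHB25 (AT5G65410, listed as HB25 in RefSeq) lies on the plus strand of chromosome 5 at chr5:26136002-26137554 in TAIR10 and has 1 exon of 1553 bases, with the coding sequence at chr5:26136179-26137018. The primers with which the line was genotyped are shown because they place the tested insertion site: the left primer matched chr5:26135487-26135510 on the plus strand and the right primer chr5:26136449-26136469 on the minus strand. The primer pair thus spans 983 bases, from 515 bases before the gene's start into its coding sequence. The 250 bases before the start lie inside that span and are shown with the only TAATTA in them in capitals, a hexamer that was also looked for in other promoters (RefSeq, TAIR10.1, chr5:26135752-26136001, plus strand).
left primer: cctagtgtgttttaagatgagccc
right primer: aaactcaccacaaccatcgac
ATHB25 upstream: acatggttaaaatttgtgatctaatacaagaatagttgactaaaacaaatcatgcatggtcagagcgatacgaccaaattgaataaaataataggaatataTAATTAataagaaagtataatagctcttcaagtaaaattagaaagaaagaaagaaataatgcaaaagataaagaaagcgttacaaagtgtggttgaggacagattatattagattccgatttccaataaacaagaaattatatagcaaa

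ATHB25 transcript was present at 6.78 and 7.12 CPM (counts per 1000000 counts of the library, scaled by the trimmed mean of M-values) in the athb25 libraries, against 70.1 and 67.6 CPM in the Col-0 libraries. The groups did not overlap, and both athb25 libraries also lay below all 14 libraries of the other mutants, which held 62.8 to 80.2 CPM. The log2 fold change, athb25 over Col-0, was -3.31 ± 0.09 (SE, n = 2 libraries each; edgeR quasi-likelihood test, adjusted p = 1.91e-14), so that 10.09% of the Col-0 level remained. The athb25 libraries still held 185 and 174 counts of ATHB25. Whether these reads came from before or after the insertion was not resolved by counts per gene.

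None of the 10 tested genes on either side of ATHB25 was misexpressed by edgeR or DESeq2, as the plot of log2 fold change against distance from ATHB25 shows. Of the 20 neighbours, 4 had an unadjusted p under 0.05 by edgeR, against 4106 of all 19100 genes tested. That background also applies to such counts in the gene lists below. Log2 fold changes of the 20 neighbours ran from -0.30 to 0.35. The nearest gene upstream, AT5G65400, had a log2 fold change of 0.35 with an adjusted p of 0.0449, short of the threshold of 0.01, by the edgeR quasi-likelihood test. Against the mean of the other 7 mutants it was 0.38 (adjusted p = 0.00363). The nearest downstream, CYCD4;1, a D-type cyclin, had 8.35 and 7.21 CPM in athb25 and 8.60 and 7.96 CPM in Col-0, with a log2 fold change of -0.08 (adjusted p = 0.769 by the same test).

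**Figure D1:**
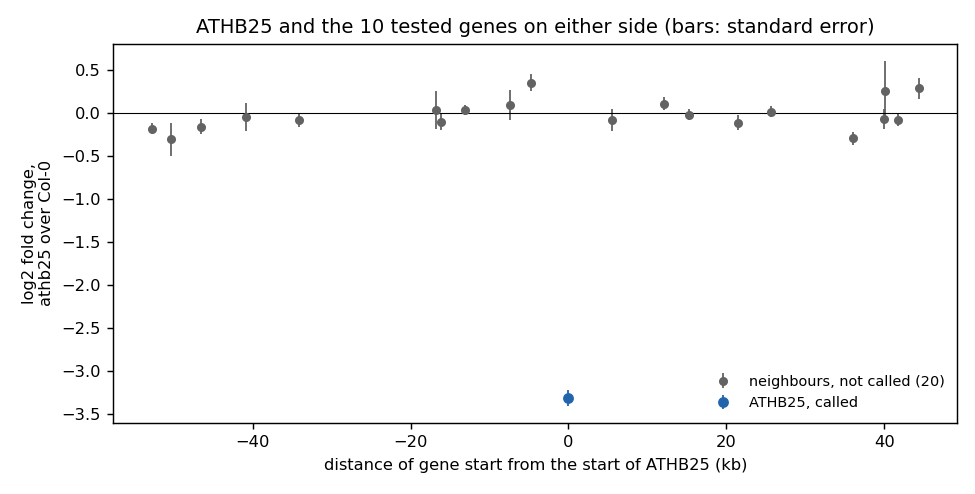
Log2 fold change, athb25 over Col-0, of ATHB25 and the 10 tested genes on either side, plotted against the distance in kb of each gene's start from that of ATHB25, with bars for the standard error. ATHB25 sits at -3.31 while its 20 neighbours lie between -0.30 and 0.35.

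Over all genes tested, 310 were misexpressed in athb25 at an adjusted p under 0.01 (1.62% of 19100), of which 188 were higher (0.984%) and 122 lower (0.639%). Most changes were modest. The median log2 fold change was 0.49 among genes that were higher and -0.56 among genes that were lower, and 49 of the 310 changed at least 2-fold, 29 upwards and 20 downwards. The median of all 19100 genes was -0.0003. Protein-coding genes made up 295 of the 310, and 86 overlapped another gene, for which the assignment of reads is uncertain.

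With 1 library left out, the group it came from rests on a single library, which is assumed to vary like the libraries of the other genotypes, so a call lost there does not show a smaller change. The number of misexpressed genes was 39 without athb25 replicate 1, 68 without athb25 replicate 2, 18 without Col-0 replicate 1 and 75 without Col-0 replicate 2. In all 4 of these fits 17 of the 310 genes kept their call, and 207 were called in none of them. Among the 34 genes named for their size of change or p, 14 kept it in all 4 (ATHB25, AT4G09455, AT3G33528, AT3G05955, AT2G40520, AT1G67105, AT1G04660, AT1G52000, RD22, LTP, Hsp70-2, AT5G35935, ACR9 and LOL1). The adjusted p of the other 20 reached values between 0.0129 (AT5G24480) and 0.142 (AT3G50300), both without Col-0 replicate 1. Where an adjusted p with 1 library left out is given for a gene, it is the highest of the 4 fits.

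**Figure D2:**
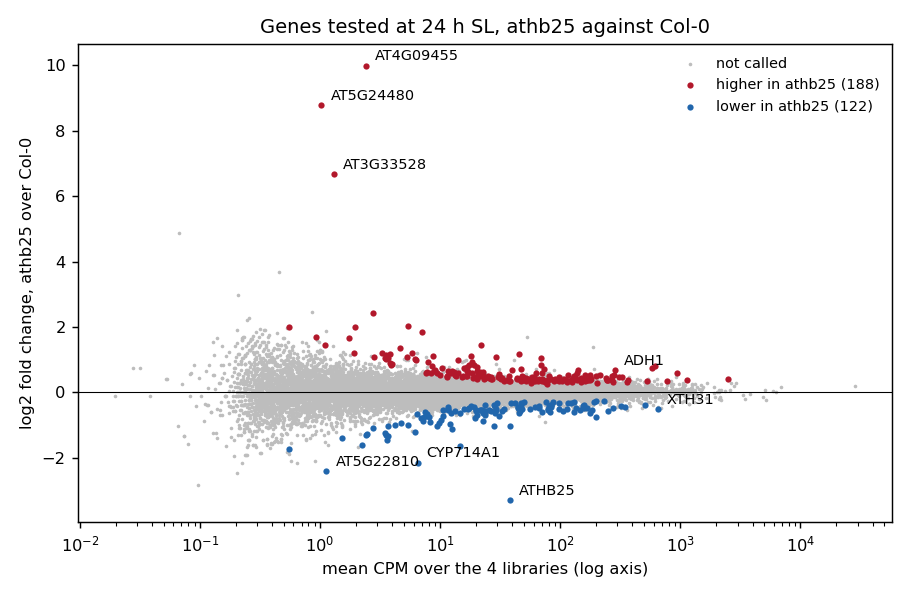
Log2 fold change, athb25 over Col-0, of each of the 19100 genes tested (vertical axis) against its mean CPM over the 4 libraries (horizontal log axis), with misexpressed genes in red (188 higher in athb25) and blue (122 lower). ATHB25 has the largest fall, and 3 weakly expressed loci at the top (AT4G09455, AT5G24480 and AT3G33528) were at 0 or 1 count in each Col-0 library, so their fitted fold changes are not measured sizes.

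The genes named here are ATHB25, the 15 largest rises and 15 largest falls among misexpressed genes that averaged 1 CPM or more and did not overlap between the 2 groups, and the 10 with the smallest p. CYP714A1, a cytochrome P450 that inactivates gibberellins (AT5G24910, chr5:8567504-8570367), had 1.69 and 3.11 CPM in athb25, against 10.4 and 10.8 CPM in Col-0. Both athb25 libraries were also below all 14 other mutant libraries, which held 7.11 to 21.4 CPM. The log2 fold change was -2.16 ± 0.31 (SE, adjusted p = 0.000621 by edgeR), and without athb25 replicate 1 the adjusted p was 0.0258.

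AT5G22810, which encodes a GDSL-like lipase, had 0.293 and 0.409 CPM in athb25 (8 and 10 counts), against 2.15 and 1.67 CPM in Col-0 (45 and 44 counts), and 0.452 to 1.69 CPM in the other mutants. Its log2 fold change was -2.42 ± 0.33 (adjusted p = 0.000565), but it overlaps AT5G22820 and its reads may be shared. KCS2, a 3-ketoacyl-CoA synthase that elongates very-long-chain fatty acids for suberin, had 0.623 and 1.06 CPM in athb25, against 2.34 and 2.08 CPM in Col-0, with a log2 fold change of -1.40 ± 0.26 (adjusted p = 0.00421), and it also overlaps other genes. LTP, which encodes a lipid transfer protein, had 3.37 and 4.05 CPM in athb25, against 8.07 and 8.98 CPM in Col-0 and 6.38 to 9.61 CPM in the other mutants (log2 fold change -1.21 ± 0.14, adjusted p = 0.000118). All 3 genes were lower in both athb25 libraries than in any of the other 16. Without athb25 replicate 1 the adjusted p was 0.0190 for AT5G22810 and 0.0795 for KCS2, and LTP kept its call in every fit with 1 library left out.

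RD22, a BURP domain gene known for its response to dehydration and abscisic acid, had 1.98 and 2.21 CPM in athb25, against 5.11 and 5.46 CPM in Col-0 (log2 fold change -1.34 ± 0.15, adjusted p = 6.82e-05). LTI78 (also RD29A), a classic gene of cold and drought response, had 7.18 and 8.80 CPM in athb25, against 18.1 and 16.6 CPM in Col-0 (-1.12 ± 0.19, adjusted p = 0.00222, and 0.0515 without athb25 replicate 1). The groups did not overlap in either gene, which the naming rule required. For RD22 the Col-0 libraries lay above all 16 others, since the other mutants held 2.02 to 4.07 CPM.

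The ammonium transporter AMT1;2 had 1.17 and 1.64 CPM in athb25, against 3.01 and 3.90 CPM in Col-0. The phosphate transporter PHT1;4 had 1.36 and 2.21 CPM in athb25, against 3.39 and 4.05 CPM in Col-0. NAS3, which makes the metal chelator nicotianamine, had 1.91 and 2.25 CPM in athb25, against 5.44 and 4.40 CPM in Col-0. BHLH100, a transcription factor of the iron deficiency response, had 2.38 and 1.64 CPM in athb25, against 5.44 and 4.62 CPM in Col-0. The log2 fold changes of these 4 genes were -1.32 ± 0.26, -1.08 ± 0.22, -1.24 ± 0.21 and -1.31 ± 0.22 in that order, with adjusted p from 0.00289 to 0.00745 by the edgeR quasi-likelihood test. In each of them Col-0 lay above all 16 other libraries. Without athb25 replicate 1 the adjusted p was 0.0954 for AMT1;2, 0.125 for PHT1;4 and 0.0579 for NAS3, and without athb25 replicate 2 it was 0.0459 for BHLH100.

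The other falls were AT1G04660 (a glycine-rich protein, log2 fold change -1.63), AT1G73050 (a glucose-methanol-choline oxidoreductase, -1.61), AT1G52000 (a mannose-binding lectin, -1.48) and AT3G05600 (an alpha/beta hydrolase, -1.28). AT1G52000 had 2.02 and 1.76 CPM in athb25, against 5.54 and 5.04 CPM in Col-0 and 2.34 to 5.67 CPM in the other mutants. AT1G52000 and AT3G05600 were lower in both athb25 libraries than in any other library. For AT1G04660 and AT1G73050 it was Col-0 that stood above all 16 others. By the smallest p, Hsp70-2, a heat shock protein 70 chaperone, joined the falls with 25.2 and 25.1 CPM in athb25, against 53.6 and 49.6 CPM in Col-0 (-1.04 ± 0.08, adjusted p = 1.11e-06), and there too Col-0 was above all 16 others.

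**Figure D3:**
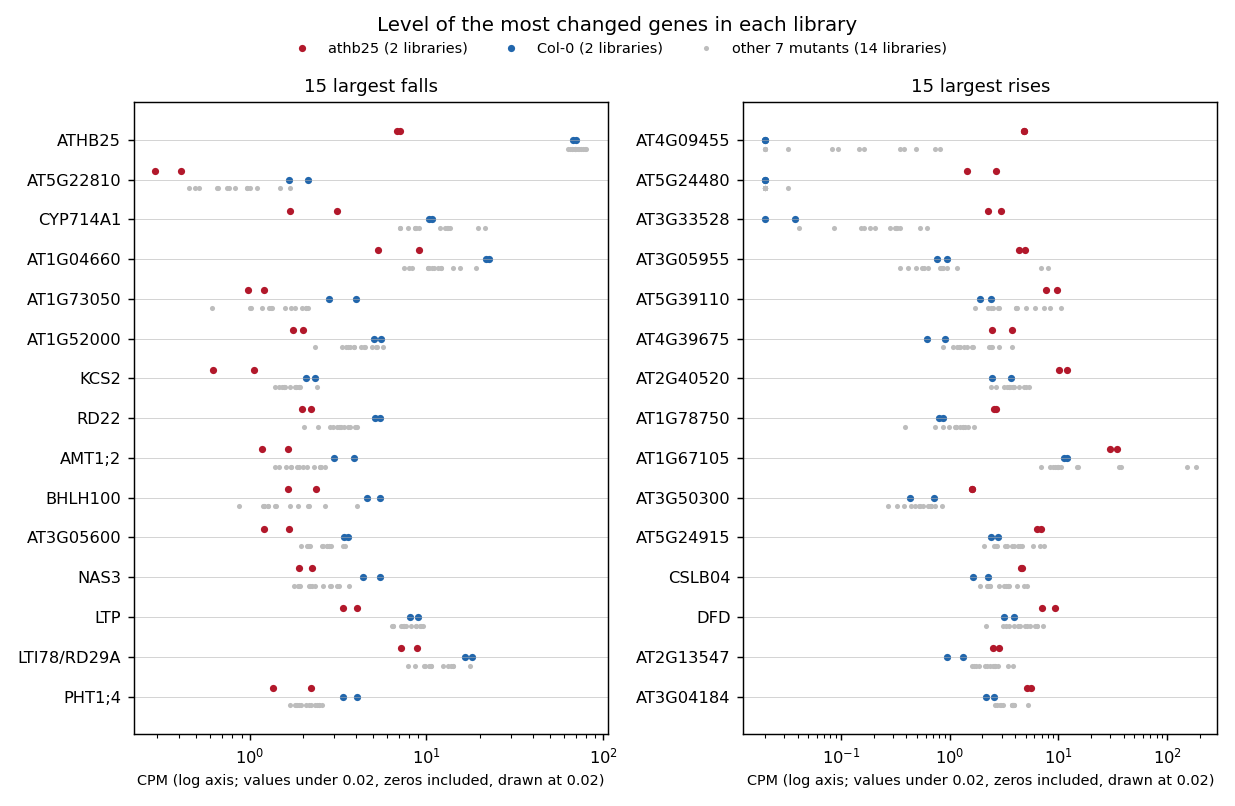
CPM on a log axis of the 15 genes with the largest falls (left) and the 15 with the largest rises (right), with 1 point per library for athb25 (red), Col-0 (blue) and the other 7 mutants (grey). For CYP714A1 and LTP the 2 athb25 points lie below all others, whereas for BHLH100 and NAS3 the athb25 points fall among the grey ones and Col-0 stands above them.

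Among the rises, 3 loci were near absent in Col-0. AT4G09455, a pseudogene on chromosome 4, had 132 and 117 counts in athb25 (4.84 and 4.79 CPM), against 0 counts in both Col-0 libraries and at most 0.819 CPM in the other mutants. AT5G24480, annotated as a beta-galactosidase related protein, had 73 and 35 counts in athb25 (2.67 and 1.43 CPM), against 0 counts in both Col-0 libraries. Of the 14 libraries of other mutants only obp1 replicate 2 held any reads of it, at 0.0325 CPM. AT3G33528, which encodes an uncharacterized protein, had 81 and 55 counts in athb25, against 0 and 1 count in Col-0 and 0.0410 to 0.614 CPM in the other mutants. Set against a floor of 3 counts per library, AT4G09455 was at least 37.5-fold higher and AT5G24480 at least 15.99-fold higher in athb25. AT3G33528 was 124-fold higher by its summed counts (95% exact interval 22.0 to 4951, which covers counting error only). By the edgeR quasi-likelihood test the adjusted p was 1.11e-06 for AT4G09455, 0.000783 for AT5G24480 and 2.34e-06 for AT3G33528, and for AT5G24480 it was 0.0129 without Col-0 replicate 1.

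Other rises had measurable levels in both groups. The long noncoding RNA AT3G05955 had 4.32 and 4.91 CPM in athb25, against 0.955 and 0.758 CPM in Col-0 (log2 fold change 2.44 ± 0.24, adjusted p = 1.28e-05), and wrky14 was the other line with a high level, at 6.95 and 7.98 CPM. The noncoding RNA AT1G67105 had 29.6 and 34.3 CPM in athb25, against 11.3 and 12.1 CPM in Col-0 (1.45 ± 0.11, adjusted p = 1.11e-06). It reached 184 and 152 CPM in hat2 and 36.1 and 37.8 CPM in lmi1, above the athb25 libraries. AT2G40520, a nucleotidyltransferase family gene, had 12.02 and 10.07 CPM in athb25, against 2.44 and 3.68 CPM in Col-0 and 2.39 to 5.32 CPM in the other mutants. Its log2 fold change was 1.83 ± 0.18 (adjusted p = 1.28e-05), with both athb25 libraries above all 16 others.

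The remaining rises included AT5G39110, a cupin family gene (9.67 and 7.74 CPM in athb25, against 2.39 and 1.89 CPM in Col-0), the F-box gene AT1G78750 (2.67 and 2.58 CPM in athb25, against 0.860 and 0.796 CPM in Col-0) and AT3G50300, an acyltransferase family gene (1.61 and 1.597 CPM in athb25, against 0.430 and 0.720 CPM in Col-0). AT1G78750 and AT3G50300 were above all 16 other libraries in both athb25 libraries, while AT5G39110 was not. CSLB04, a cellulose synthase-like gene, had a log2 fold change of 1.22 ± 0.18, and DFD, a folylpolyglutamate synthetase that lengthens the glutamate tail of folates, one of 1.21 ± 0.18. The pseudogene AT5G24915, which lies next to CYP714A1, had 6.93 and 6.30 CPM in athb25, against 2.39 and 2.77 CPM in Col-0 (1.35 ± 0.27, adjusted p = 0.00635, and 0.0871 without Col-0 replicate 1). The athb15 libraries held 7.37 and 6.73 CPM of AT5G24915. Against the mean of the other 7 mutants its log2 fold change was 0.77, short of the threshold (adjusted p = 0.0109 by edgeR). AT4G39675, AT2G13547 and AT3G04184, of uncharacterized products, completed the 15 with log2 fold changes of 2.00, 1.20 and 1.18.

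The smallest p values added ACR9, which encodes a protein with ACT domains, LOL1, a zinc finger gene related to the cell death regulator LSD1, and the pseudogene AT5G35935. ACR9 had 89.6 and 87.6 CPM in athb25, against 54.3 and 45.2 CPM in Col-0, and the other mutants lay between, at 60.0 to 76.4 CPM (log2 fold change 0.83 ± 0.07, adjusted p = 2.34e-06). LOL1 had 12.3 and 11.4 CPM in athb25, against 5.06 and 5.95 CPM in Col-0 (1.10 ± 0.12, adjusted p = 5.76e-05). For LOL1 the other mutants held 7.32 to 14.5 CPM, a range that takes in both athb25 libraries and neither Col-0 library. AT5G35935 had 38.4 and 41.3 CPM in athb25, against 17.5 and 20.5 CPM in Col-0 (1.06 ± 0.09, adjusted p = 1.11e-06). The line lmi1 held 8.62 and 7.49 CPM of it and the other 6 mutants 32.5 to 38.9 CPM.

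Col-0 was 1 of 9 genotypes, so each misexpressed gene was also placed against the other lines. Both athb25 libraries lay outside the range of the other 16 libraries for 116 of the 310 genes (37.4%), against 4.8% of all genes tested. Both Col-0 libraries lay outside the range of the other 16 for 102 of the 310 (32.9%), against 3.96% of all genes tested. In 23 genes both held and in 115 neither did. The 310 genes were chosen by a difference between athb25 and Col-0, which raises both shares, so these are descriptions without a test. Among the 34 named genes, athb25 stood outside the other 16 libraries in 14 and Col-0 did so in 13, with AT3G33528 and ACR9 in both counts.

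Set against the mean of the other 7 mutants instead of Col-0, 567 genes (2.97% of 19100) differed in athb25 at an adjusted p under 0.01, 415 higher and 152 lower. The 2 comparisons share the athb25 libraries and are not independent. Of the 34 named genes, 21 passed the threshold in this comparison too. ATHB25 had a log2 fold change of -3.35 (-3.31 against Col-0), CYP714A1 -2.22 (-2.16), LTP -1.08 (-1.21) and AT2G40520 1.57 (1.83). By contrast PHT1;4 had -0.27 (-1.08), NAS3 -0.23 (-1.24), AT1G73050 -0.41 (-1.61) and AT2G13547 0.16 (1.20), none past the threshold. For BHLH100 the sign turned, with a log2 fold change of 0.32 (adjusted p = 0.351) against the other mutants and -1.31 against Col-0. Leaving out athb25 replicate 1 or 2 took the 567 genes to 139 or 111.

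**Figure D4:**
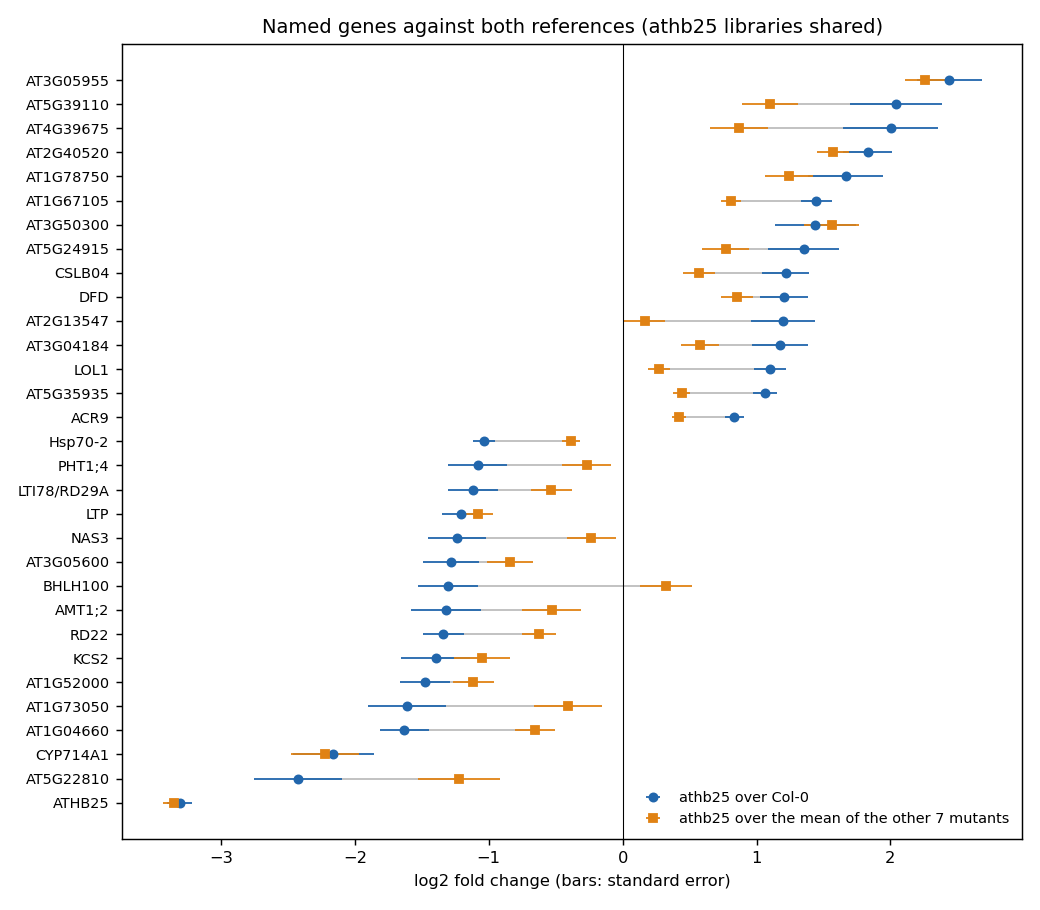
Log2 fold change with standard error of 31 named genes, athb25 over Col-0 (blue circles) and athb25 over the mean of the other 7 mutants (orange squares), leaving out the 3 loci at 0 or 1 count in Col-0. The 2 values nearly coincide for ATHB25 and CYP714A1, while BHLH100 crosses 0, at -1.31 against Col-0 and 0.32 against the other mutants.

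The tested members of 21 lists of genes for germination, hormones, stress and metabolism were then examined. Of their 327 tested genes, 26 (7.95%) were misexpressed, against 1.62% of all genes tested, 6 higher and 20 lower in athb25. Only ATHB25 and Hsp70-2 kept their call whichever of the 4 libraries was left out. The lists were chosen with earlier results of these data known, so this share is a description. Because whole seed was measured, fewer cells of a type and less RNA per cell cannot be told apart.

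**Figure D5:**
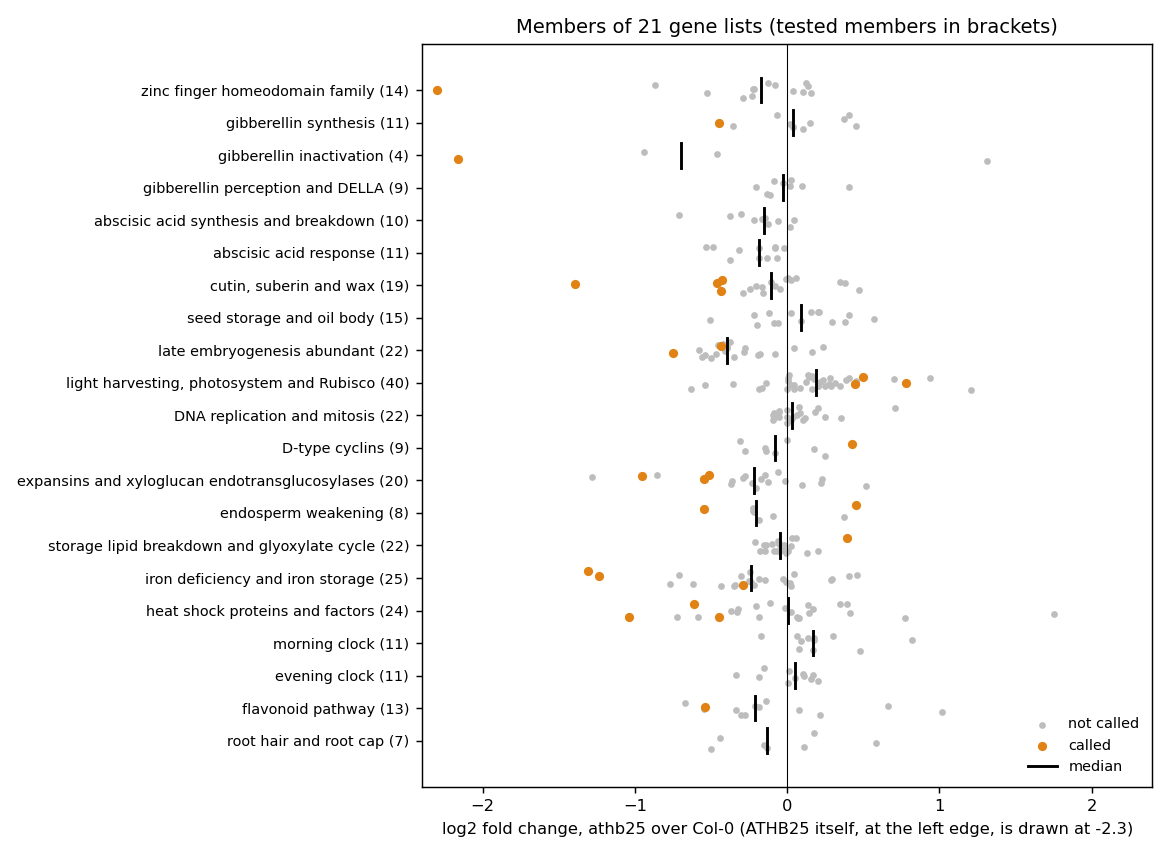
Log2 fold change, athb25 over Col-0, of each tested member of 21 gene lists (1 row per list, number of tested members in brackets), with misexpressed members in orange, the others in grey and the list median as a black bar. Medians stay within 0.40 of 0 except that of gibberellin inactivation, at -0.70 over 4 genes, and ATHB25, at -3.31, is drawn at the left edge.

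ATHB25 was the only misexpressed gene among the 14 tested members of its own family. The median log2 fold change of the family was -0.17, with 5 members above 0. The relatives HB22 (61.7 and 54.4 CPM in athb25, against 54.7 and 51.9 CPM in Col-0) and HB33 (214 and 204 CPM in athb25, against 195 and 181 CPM in Col-0) had log2 fold changes of 0.13 and 0.16 with adjusted p of 0.4005 and 0.233 by edgeR. HB28 and HB32 had the next lowest values after ATHB25, -0.86 and -0.53, neither past the threshold. HB26, MIF2 and MIF3 had at most 3 counts in any library and were not tested.

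Gibberellin synthesis genes had a median log2 fold change of 0.04 over 11 members, and -0.06 against the other mutants, with 1 misexpressed in edgeR and 0 in DESeq2. GA2, the kaurene synthase at the start of the pathway, had 9.75 and 9.78 CPM in athb25, against 13.9 and 12.9 CPM in Col-0 (log2 fold change -0.45 ± 0.09, adjusted p = 0.00892, and 0.114 without Col-0 replicate 1). The enzymes of the last steps did not pass the threshold. GA3OX1 had 9.49 and 10.6 CPM in athb25 and 10.2 and 8.03 CPM in Col-0, and GA3OX2 had 89.6 and 90.4 CPM in athb25 and 94.8 and 93.9 CPM in Col-0. GA20OX2 had a log2 fold change of 0.38 (adjusted p = 0.221) against Col-0 and 0.65 (adjusted p = 0.00347) against the other mutants, with 11.5 and 13.6 CPM in athb25, 10.7 and 8.68 CPM in Col-0 and at most 9.52 CPM elsewhere. In that second comparison GA2 (-0.44) and GA20OX3 (-0.56, adjusted p = 0.00157) were called lower. GA20OX3, of the same enzyme family as GA20OX2, had 25.4 and 30.5 CPM in athb25, against 36.8 and 34.7 CPM in Col-0 (-0.35, adjusted p = 0.110).

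Of the gibberellin-inactivating enzymes 4 could be tested, and CYP714A1 was the one misexpressed. GA2OX2, a gibberellin 2-oxidase, had 1.06 and 0.983 CPM in athb25, against 2.101 and 1.86 CPM in Col-0, a log2 fold change of -0.94 ± 0.22 that missed the threshold (adjusted p = 0.0161). CYP714A2, of the same subfamily as CYP714A1, had a value of opposite sign, 1.31 ± 0.48 (adjusted p = 0.112), at under 1 CPM in all 4 libraries. None of the 9 receptor and DELLA genes passed the threshold in edgeR or DESeq2, none had an unadjusted p under 0.05, and their median was -0.03. RGL2, the DELLA repressor known to hold back germination, had 244 and 242 CPM in athb25 and 258 CPM in both Col-0 libraries (log2 fold change -0.09, adjusted p = 0.399).

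RD22 and LTI78, described above as lower in athb25, were not members of the abscisic acid lists. In edgeR no tested member of these lists was misexpressed, among 10 for synthesis and breakdown and 11 for the response. At an unadjusted p under 0.05 there were 1 and 4 of them, and DESeq2 called 1 response gene. All 11 response genes had a log2 fold change below 0, with a median of -0.18. The nearest to the threshold was HAI2, a protein phosphatase induced by abscisic acid, with 13.3 and 13.7 CPM in athb25, against 21.3 and 17.96 CPM in Col-0 (-0.53 ± 0.11, adjusted p = 0.0109). ABI5, the transcription factor that arrests growth after germination in response to the hormone, had 106 and 108 CPM in athb25, against 141 and 125 CPM in Col-0 (-0.32 ± 0.08, adjusted p = 0.0264). ABI3 and ABI4 had log2 fold changes of -0.13 and -0.08. Of the breakdown enzymes CYP707A2 had 0.05 and CYP707A3 -0.37 (adjusted p = 0.0349).

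Genes for cutin, suberin and wax had 4 misexpressed members of 19, all lower. Besides KCS2 these were ABCG11, a transporter that exports cuticular lipids, with 68.9 and 74.4 CPM in athb25, against 97.3 and 96.6 CPM in Col-0 (log2 fold change -0.44 ± 0.07, adjusted p = 0.00229). FAR1, a fatty acyl-CoA reductase for suberin alcohols, had 38.9 and 36.1 CPM in athb25, against 50.9 and 52.1 CPM in Col-0 (-0.46 ± 0.09, adjusted p = 0.00569). PEL3 (also DCR), an acyltransferase for cutin, had 14.95 and 15.97 CPM in athb25, against 21.8 and 19.9 CPM in Col-0 (-0.43 ± 0.08, adjusted p = 0.00593). The groups did not overlap in any of the 4, but 307 of the 310 misexpressed genes had no overlap and averaged 1 CPM or more. For FAR1 and PEL3 Col-0 stood above all 16 other libraries, with at most 48.5 and 19.1 CPM in the other mutants. The median of the list was -0.10, and it was 0.02 against the other 7 mutants, where KCS2 and ABCG11 were called lower and CYP86A4 and CER1 higher. ABCG11, FAR1 and PEL3 lost their call whichever library was left out, with adjusted p up to 0.0514, 0.0717 and 0.0983. GPAT5 and CYP86A1, defining enzymes of suberin, had at most 1 count in any library.

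Of 22 LEA genes 2 were misexpressed, both lower. The median log2 fold change was -0.39, against -0.0003 for all genes tested, with 19 of 22 values below 0. ECP63 had 146 and 150 CPM in athb25, against 269 and 229 CPM in Col-0 (-0.75 ± 0.14, adjusted p = 0.00444), and AT4G21020 had 277 and 265 CPM in athb25, against 392 and 341 CPM in Col-0 (-0.43 ± 0.09, adjusted p = 0.00685). LEA4-5 had 512 and 589 CPM in athb25, against 775 and 734 CPM in Col-0, with an adjusted p of 0.0777. The line obp1 had 153 and 146 CPM of ECP63 and 293 and 267 CPM of AT4G21020. Both calls were lost whichever library was left out, with adjusted p up to 0.0806 for ECP63 and 0.133 for AT4G21020. The median against the other 7 mutants was -0.37, with 2 members called, M17 and AT3G53040. The summed level of the 22 genes was 4546 and 5052 CPM in athb25, 6533 and 6068 CPM in Col-0 and 4658 to 8372 CPM in the other mutants.

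Seed storage protein and oil body genes had no misexpressed member of 15 in edgeR or DESeq2 (3 at an unadjusted p under 0.05) and a median log2 fold change of 0.09, which was -0.28 without athb25 replicate 2 and -0.07 without Col-0 replicate 2. Their libraries differed widely within a group. CRA1, a cruciferin, had 822 and 1420 CPM in athb25, against 1072 and 936 CPM in Col-0, and the other mutants ranged from 466 to 6521 CPM. Among genes of storage oil breakdown and the glyoxylate cycle, ICL, isocitrate lyase, had 29484 and 32170 CPM in athb25, against 27182 and 26338 CPM in Col-0 (log2 fold change 0.20, adjusted p = 0.172), and of the 22 genes only PMDH2, a peroxisomal malate dehydrogenase, was misexpressed (0.39 ± 0.08, adjusted p = 0.00913, and 0.0929 without athb25 replicate 2).

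Of 40 tested genes for light harvesting, the photosystems and Rubisco, 3 were misexpressed, all higher. The median log2 fold change was 0.19, with 33 values above 0. PSAN, a photosystem I subunit, had 22.9 and 28.2 CPM in athb25, against 14.9 and 14.8 CPM in Col-0 (0.78 ± 0.13, adjusted p = 0.00173). NPQ4, the photosystem II protein that senses excess light, had 274 and 278 CPM in athb25, against 208 and 199 CPM in Col-0 (0.44 ± 0.09, adjusted p = 0.00784). PSBX, a small photosystem II subunit, had 152 and 155 CPM in athb25, against 99.8 and 117 CPM in Col-0 (0.50 ± 0.11, adjusted p = 0.00970). The Rubisco small subunit gene RBCS1B had 20.9 and 20.6 CPM in athb25, against 11.2 and 10.5 CPM in Col-0, short of the threshold (0.94 ± 0.27, adjusted p = 0.0427). Against the other 7 mutants the median was -0.01 and only PSAN was called. NPQ4 and PSBX lost their call whichever library was left out (adjusted p up to 0.0654 and 0.165), and PSAN kept it only without athb25 replicate 1 (up to 0.0354).

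Cell wall loosening genes had 3 misexpressed members of 20, all of them xyloglucan endotransglucosylases and all lower. XTH31 had 524 and 550 CPM in athb25, against 770 and 766 CPM in Col-0 (log2 fold change -0.52 ± 0.10, adjusted p = 0.00471). Col-0 was above all 16 other libraries there, and athb25 lay within the 475 to 754 CPM of the other mutants. XTH19 had 117 and 121 CPM in athb25, against 188 and 160 CPM in Col-0 (-0.55 ± 0.12, adjusted p = 0.00961). XTH18 had 6.89 and 6.43 CPM in athb25, against 14.7 and 11.3 CPM in Col-0 (-0.95 ± 0.19, adjusted p = 0.00718), yet against the other mutants its log2 fold change was 0.67 (adjusted p = 0.0157). Among the expansins, EXPA15 (159 and 150 CPM in athb25, against 196 and 202 CPM in Col-0) and EXPA2 (1044 and 1009 CPM in athb25, against 1360 and 1287 CPM in Col-0) came nearest to the threshold, with adjusted p of 0.0107 and 0.0207. Against the other mutants 4 expansins were called lower (EXPA1, EXPA2, EXPA10 and EXPA15) and XTH4 and XTH5 higher. The median of the list was -0.22 against Col-0, with 4 members above 0, and the 3 calls were lost whichever library was left out, with adjusted p up to 0.152.

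Among 8 genes of endosperm weakening, the softening of the tissue around the radicle, 1 was higher and 1 lower. GASA4, which encodes a small gibberellin-regulated peptide, had 368 and 394 CPM in athb25, against 263 and 292 CPM in Col-0 (log2 fold change 0.45 ± 0.07, adjusted p = 0.00120). AT5G14920 (GASA14), of the same peptide family, had 66.8 and 61.4 CPM in athb25, against 98.1 and 89.5 CPM in Col-0 (-0.55 ± 0.10, adjusted p = 0.00337). Without Col-0 replicate 1 the adjusted p was 0.0438 for GASA4 and 0.0617 for AT5G14920. The mannanases MAN5, MAN7 and MAN2 had log2 fold changes of -0.23, -0.19 and -0.09, and MAN6 had 0.38 (adjusted p = 0.0135).

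Cell division genes showed a single call. CYCD3;2, a D-type cyclin that drives entry into division, had 167 and 174 CPM in athb25, against 128 and 126 CPM in Col-0 and 128 to 160 CPM in the other mutants (log2 fold change 0.43 ± 0.06, adjusted p = 0.000621, and 0.0135 without Col-0 replicate 1). The other 8 tested D-type cyclins did not pass the threshold. None of 22 genes for DNA replication and mitosis was misexpressed in edgeR or DESeq2 (1 at an unadjusted p under 0.05), and their median log2 fold change was 0.03, or -0.02 without athb25 replicate 2 or Col-0 replicate 1. MCM2, a subunit of the replicative helicase, had 52.8 and 50.9 CPM in athb25 and 52.2 and 55.3 CPM in Col-0.

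Iron homeostasis genes had 3 misexpressed members of 25, all lower: BHLH100, NAS3 and FRO3, a mitochondrial ferric chelate reductase with 76.2 and 81.5 CPM in athb25, against 96.1 and 96.3 CPM in Col-0 (log2 fold change -0.29 ± 0.06, adjusted p = 0.00829, and 0.108 without athb25 replicate 1). The ferritins FER1, FER3 and FER4, which store iron, had values of 0.40, 0.30 and 0.46 with adjusted p from 0.0451 to 0.0755, and FER2 had 0.03, with 22.4 and 28.6 CPM in athb25 and 25.4 and 24.5 CPM in Col-0. The list's median was -0.24 against Col-0 and 0.07 against the other mutants. In that second comparison bHLH38 (1.38), bHLH39 (1.71), NAS4 (0.77) and AT1G47395 (IMA2, 0.68) were called higher in athb25 and none was called lower. Of these, bHLH38 rests on few counts, with 0.586 and 0.655 CPM in athb25 and 0.122 to 0.464 CPM in the other mutants.

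Of 24 heat shock genes 3 were misexpressed, all lower and all of the cytosolic HSP70 class. Beside Hsp70-2, AT3G09440 had 288 and 297 CPM in athb25, against 402 and 398 CPM in Col-0 (log2 fold change -0.45 ± 0.06, adjusted p = 0.000565), and HSP70 had 53.8 and 58.5 CPM in athb25, against 87.9 and 83.4 CPM in Col-0 (-0.61 ± 0.09, adjusted p = 0.000883). For AT3G09440, as for Hsp70-2, Col-0 stood above all 16 other libraries, and the other mutants held 289 to 329 CPM. Without athb25 replicate 1 the adjusted p was 0.0137 for AT3G09440 and 0.0284 for HSP70. Against the other mutants HSP101, HSP70 and Hsp70-2 were called lower. HSC70-1, of the same class, had 7258 and 7411 CPM in athb25 and 6359 and 6660 CPM in Col-0 (0.17, adjusted p = 0.195). The median of the list was 0.01, and it was -0.21 without athb25 replicate 2, -0.15 without Col-0 replicate 2 and -0.33 when genes under a mean of 50 counts were dropped.

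FLS1, flavonol synthase, was the only misexpressed gene of 13 in the flavonoid pathway, with 17.77 and 17.85 CPM in athb25, against 25.84 and 25.96 CPM in Col-0 (log2 fold change -0.54 ± 0.11, adjusted p = 0.00810, and 0.0735 without athb25 replicate 1). TT4, chalcone synthase, had 120 and 141 CPM in athb25, against 168 and 213 CPM in Col-0 (-0.55, adjusted p = 0.0346). No clock gene was misexpressed in edgeR or DESeq2, of 11 morning and 11 evening components, and 1 in each list had an unadjusted p under 0.05. The morning genes had 10 of 11 values above 0 and a median of 0.17 against Col-0, but a median of -0.08 against the other mutants. LHY, a morning transcription factor, had 138 and 152 CPM in athb25 and 126 and 131 CPM in Col-0 (0.18, adjusted p = 0.289). None of the 7 tested root hair and root cap genes was misexpressed in edgeR or DESeq2 or had an unadjusted p under 0.05, and against the other mutants, which include the root cap line smb, their median was 0.46 and 3 were called higher (SMB, NAC070 and AT5G60530).

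The hexamer TAATTA is a palindrome around the ATTA core that many homeodomain proteins bind. It was looked for on both strands, which read alike, from 250 bases before to 50 after each gene's start as deposited with the counts. It was found in 35.2% of the promoters of genes lower in athb25 (43 of 122), in 27.7% of those of genes higher in athb25 (52 of 188) and in 31.0% of all 19028 promoters that could be read. The shares lie on either side of that of all promoters and no test was made. The upstream 250 bases of CYP714A1 and KCS2 are shown because both genes were below all other libraries in athb25 and carry the hexamer there, in capitals (TAIR10.1, minus strand, CYP714A1 at chr5:8570368-8570617 and KCS2 at chr1:1122787-1123036). Those of LTP, AT1G52000 and AT5G22810, which were also below all other libraries, have no such match. These genes were picked by hand from the 41 misexpressed genes below all 16 other libraries. AT3G05600, another of the 41, was not read on its own. Whether ATHB25 binds any of these sites was not tested.
CYP714A1 upstream: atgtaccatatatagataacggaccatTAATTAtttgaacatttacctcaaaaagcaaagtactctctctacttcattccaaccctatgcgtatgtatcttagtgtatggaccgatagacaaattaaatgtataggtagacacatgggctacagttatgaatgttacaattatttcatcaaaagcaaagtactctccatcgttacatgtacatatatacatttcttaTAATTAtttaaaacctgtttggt
KCS2 upstream: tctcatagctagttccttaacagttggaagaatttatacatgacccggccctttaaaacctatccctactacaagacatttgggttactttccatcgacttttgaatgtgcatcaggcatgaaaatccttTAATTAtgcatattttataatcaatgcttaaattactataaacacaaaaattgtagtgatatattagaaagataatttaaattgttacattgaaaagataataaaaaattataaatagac

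The libraries held 27162314 and 24566838 counts for athb25 and 20692809 and 26112879 counts for Col-0, within the 18146206 to 33111743 counts of the series. Pearson's r of log2 CPM across genes was 0.995 between the athb25 libraries, 0.994 between the Col-0 libraries and 0.989 to 0.992 across the 2 groups. The counts of the duplicates differed by 4.96 (athb25) and 5.08 (Col-0) times the sampling variance, so neither pair was one library deposited again. The label of germinating seed was met by cruciferin, LEA and replication genes, which were at measurable levels in the 4 libraries. Light harvesting was met only in part. Its tested genes had counts in these libraries, though LHCB2.3 reached only 0.368 to 0.513 CPM. No read was counted there for LHB1B1 or LHB1B2, which could not be tested. Root hair and root cap genes were mixed. RHD6, GL2 and SMB had 8.50 to 18.9 CPM in the 4 libraries. The root cap genes NAC015 and NAC070 had only 0.366 to 0.568 CPM and 0.334 to 0.696 CPM there. The root hair genes SHV2 (COBL9) and RHS19 had at most 1 and 5 counts in any library. The seed was pooled and the labels do not say whether each duplicate was a separate pool. The p values rest on the spread between duplicates, shared over all 9 genotypes in the model of 18 libraries. That spread may be technical.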

How the data were processed

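RNA-seq libraries of germinating seed from Col-0 and 8 T-DNA lines (2 each, 18 in all) were used. The deposited values are whole-number counts without normalization. The authors trimmed reads with Trim Galore 0.4.2, aligned them to TAIR10 with HISAT2 2.0.5 and assigned them to Araport11 genes with featureCounts 1.5.1. The libraries were stranded per the labels, but whether counting used the strand is not given in the sources used here, so overlapping genes are uncertain. Symbols and products came from RefSeq TAIR10.1, matched by locus for 37051 of 37336 genes, of which 99.5% had identical positions. Promoters were read from the same assembly and primers were matched to it.

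Genes with too few counts were removed with filterByExpr, leaving 19100, while 11015 had no count. A single genotype model over the 18 libraries was fitted after TMM scaling (edgeR 4.0.16, R 4.3.3). Genes were called misexpressed where the quasi-likelihood test gave an adjusted p (Benjamini-Hochberg) under 0.01. The standard error is the log2 fold change divided by the square root of F. The common biological coefficient of variation was 5.87%. Each library held 18146206 to 33111743 counts, and the counts of each gene set its precision. Intervals, floors and bounds cover counting error only.

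Named genes are ATHB25, the 15 largest rises and falls among called genes that averaged 1 CPM or more and did not overlap between the groups, the 10 smallest p, called genes among 10 neighbours on either side of ATHB25, and list members where a list is described. The genes, lists and rules were chosen with earlier results of these data known. The alternatives were DESeq2 1.42.0 (size factors and Wald test), other count filters, a model of 4 libraries, a replicate block, other thresholds, the other mutants as reference, and leaving out each library. The method was tested on simulated data.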

Additional observations from a re-analysis of the deposited data

How the results depend on the processing

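ATHB25 kept its fall under each of the 11 alternatives run, with a log2 fold change between -3.35 and -3.28. The 310 misexpressed genes became 1177 with no count filter, 492 with the DESeq2 Wald test, 1181 at an adjusted p under 0.05, 49 with at least a 2-fold change and 567 when athb25 was set against the other 7 mutants, and ran from 18 to 75 with 1 library left out. The cause of the rise without a filter was not tested. DESeq2 size factors, a mean of at least 50 counts and a model of 4 libraries gave 311, 291 and 406. Of these, 309, 287 and 250 in that order were among the 310. The replicate block gave 250, of which 247 were among the 310. Between athb25 and Col-0 the correlation of same-numbered deviations was 0.0093. A single correlation for these groups cannot exclude a replicate effect shared by some genes. For example, the evening clock gene PCL1 was higher in replicate 1 than in replicate 2 in every genotype except vnd2. It was picked after its values were seen, and no test of it was made. The 567 genes against the other 7 mutants became 1394 with no filter, 1384 at an adjusted p under 0.05 and 97 with at least a 2-fold change, and ran from 111 to 529 with 1 library left out. The replicate block gave 540. Of the 20 neighbours, 2 passed an adjusted p of 0.05 and 1 passed 0.01 against the other 7 mutants. BHLH100 turned to 0.32 against the other 7 mutants. The other named genes kept their direction in each fit, with 3 of 34 calls lost under the block, 4 in the model of 4 libraries, 1 of 33 with the Wald test and 11 to 19 with 1 library left out. Medians of 9 of 21 lists changed sign against the other 7 mutants. Genes under about 1 CPM rest on few counts, so changes there were not detectable at this depth unless large.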

Other observations

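Genes known for the response to low oxygen were noticed among the misexpressed genes, and a list of 36 was then written with these values already seen, so its counts are a description without a test. Of 33 that could be tested, 13 were higher in athb25 and none was lower, against 0.984% of all genes tested that were higher, and the median log2 fold change was 0.58. ADH1, the alcohol dehydrogenase of fermentation, had 339 and 363 CPM in athb25, against 219 CPM in both Col-0 libraries (log2 fold change 0.68 ± 0.09, adjusted p = 0.000342 by edgeR). The pyruvate decarboxylase AT4G33070, one step before it, had 94.6 and 94.1 CPM in athb25, against 45.5 and 44.8 CPM in Col-0 (1.06 ± 0.15, adjusted p = 0.000621). SUS1, a sucrose synthase, had 8.76 and 7.82 CPM in athb25, against 3.87 and 4.32 CPM in Col-0 (1.01 ± 0.17, adjusted p = 0.00205), and HB1, a hemoglobin, had 238 and 265 CPM in athb25, against 175 and 176 CPM in Col-0 (0.52 ± 0.10, adjusted p = 0.00589). FTM1 had 799 and 781 CPM in athb25, against 469 and 428 CPM in Col-0 (0.82 ± 0.11). The groups did not overlap in any of these 5 genes, as in at least 307 of the 310 misexpressed genes. PDC2, a second pyruvate decarboxylase, had 25.2 and 23.0 CPM in athb25 and 25.2 and 23.65 CPM in Col-0. Of the 13 genes, ACO1 and ACR9 kept their call whichever library was left out, and ADH1 had an adjusted p of 0.0111 without Col-0 replicate 1. Against the other 7 mutants the median of the list was 0.17 and 5 members were called higher. The summed level of the list was 3273 and 3106 CPM in athb25, 2239 and 2055 CPM in Col-0 and 2353 to 3792 CPM in the other mutants, so that Col-0 was below every other library and athb25 was among the other mutants.

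Calvin cycle genes were listed in the same way after their values were seen, so their counts are a description without a test. Of 16 members 4 were higher in athb25, against 0.984% of all genes tested. Values above 0 were found in 15 of 16, against 9533 of all 19100 genes tested, and their median was 0.28. GAPA, the glyceraldehyde-3-phosphate dehydrogenase of chloroplasts, had 317 and 343 CPM in athb25, against 223 and 237 CPM in Col-0 (0.52 ± 0.08, adjusted p = 0.000897). PRK, phosphoribulokinase, had 134 and 138 CPM in athb25, against 96.1 and 93.1 CPM in Col-0 (0.52 ± 0.09, adjusted p = 0.00276). SBPASE and RPE were the other 2, with 0.39 and 0.36. Each of the 4 lost its call in at least 2 of the fits with 1 library left out, and against the other 7 mutants none was called and the median was 0.10.

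By position, misexpressed genes with at least a 2-fold change were counted in 121 windows of 1 Mb over the 5 chromosomes. The window from 8000001 to 9000000 on chromosome 5 held 4 of the 49 (AT5G24480, CYP714A1, AT5G24915 and RD22), and no other window held more than 2. Of the 152 genes tested there 6 were misexpressed (3.95%), against 1.62% of all genes tested, and 10 other windows had a higher share, such as 8 of 184 (4.35%) in the window just before it. The window was singled out after its values were seen, and ATHB25 lies elsewhere on the same chromosome. Whether the position is connected to these changes was not tested.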
